A study of Homo sapiens with 18 samples.

Results

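LS513, LS180 and CL40 are 3 of the 18 cell lines in the series, and they were set against 4 others, SNUC1, HT55, SW948 and SW1463. All 7 are established cell lines labelled as colorectal cancer, and each was measured once, as biotin-labelled total RNA on 1 human whole-transcriptome array. The members were chosen by cell line name: the first 3 were taken as lines of a mucinous or metabolic type and the other 4 as lines of a canonical WNT type, and the remaining 11 lines were left out. These names are those of the consensus molecular subtypes of colorectal cancer, which are themselves defined from expression, so a difference in mucin, metabolic or WNT genes between the groups is not independent of how they were named. The labels used here assign no subtype to any line. LS180 and CL40 were grown in DMEM/F-12, and LS513 in RPMI with added glucose and pyruvate. HT55, SW948 and SW1463 were grown in DMEM/F-12, and SNUC1 in the same RPMI mixture as LS513. No line carried a treatment, and the labels give no passage, clone or donor detail. With 1 array a line, the error of every comparison is the spread between lines, and precision is set by how few arrays there are.

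The colon lining is renewed from stem cells at the crypt base, where WNT signalling stabilises beta-catenin and switches on targets through TCF and LEF factors. Daughter cells become absorptive cells with a brush border or secretory cells. Goblet cells are secretory and make the gel-forming mucin MUC2 and pack it with trefoil factors. Mucinous colorectal tumours keep or regain much of this secretory output, while the canonical WNT type is known for WNT and MYC activity.

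Values are log2 intensities, so 1 unit is a factor of 2 in signal. A level of 5.01, the 95th percentile of 75 probe sets for genes of unrelated tissues, was used as background. Each of the 7 lines had between 9347 and 9474 genes above it, out of 19774 genes measured, and array medians ran from 3.66 to 3.68. CDH1, the junction protein E-cadherin that marks epithelium, read 11.25, 10.97 and 11.58 in LS513, LS180 and CL40, against 11.48, 11.40, 10.77 and 11.07 in SNUC1, HT55, SW948 and SW1463. The groups overlapped and all 7 lines were E-cadherin-positive. Of 11 leukocyte markers measured, LYZ alone exceeded background in any line, and it is also a Paneth cell gene. The summed leukocyte level was 41.4 to 45 in LS513, LS180 and CL40 and 38.9 to 45.4 in the other 4 lines, and PTPRC, the defining marker, was at most 3.43 anywhere. None of 8 endothelial markers exceeded background. Of 22 mesenchymal markers, 5 did so in some line, with sums of 79.1 to 82.2 against 75.7 to 79.9. Among these 5, FN1 read 8.39 in SNUC1 and 6.67 in CL40, and TWIST1 read 6.57 in HT55. TAGLN and ACTA2 were brightest in LS513, at 6.25 and 5.11. VIM, COL1A1 and COL1A2, taken as the defining markers, stayed under background in all 7 lines.

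The promoters of 3 genes on which the results turn are shown here, each as the RefSeq window on GRCh38.p14 from 250 bases before to 50 after the annotated start. GNG4 is the gene with the widest separation, and its CpG dinucleotides are in capitals. REG4 and MUC2 are the secretory genes that mark the mucinous type, and capitals mark the motif TTTATG or its reverse complement CATAAA, the core bound by the intestinal factors CDX1 and CDX2.
GNG4: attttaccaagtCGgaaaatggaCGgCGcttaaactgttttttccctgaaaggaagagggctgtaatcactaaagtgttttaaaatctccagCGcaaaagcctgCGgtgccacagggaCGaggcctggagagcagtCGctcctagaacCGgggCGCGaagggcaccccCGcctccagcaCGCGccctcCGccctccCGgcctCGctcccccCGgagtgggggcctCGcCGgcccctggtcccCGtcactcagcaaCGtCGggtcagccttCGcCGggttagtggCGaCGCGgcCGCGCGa
REG4: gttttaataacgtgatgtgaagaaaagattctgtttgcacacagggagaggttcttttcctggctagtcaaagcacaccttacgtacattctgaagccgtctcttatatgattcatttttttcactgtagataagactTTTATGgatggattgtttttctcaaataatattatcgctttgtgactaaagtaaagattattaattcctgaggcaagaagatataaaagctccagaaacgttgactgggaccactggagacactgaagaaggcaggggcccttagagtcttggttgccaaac
MUC2: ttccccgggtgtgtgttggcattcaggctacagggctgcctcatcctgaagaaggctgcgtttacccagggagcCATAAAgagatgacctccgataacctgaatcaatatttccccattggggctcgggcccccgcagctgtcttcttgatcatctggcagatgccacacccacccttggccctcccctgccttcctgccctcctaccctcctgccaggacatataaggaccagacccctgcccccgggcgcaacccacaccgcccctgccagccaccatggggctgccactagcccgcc
The GNG4 window lies at chr1:235650559-235650858 on the minus strand, the REG4 window at chr1:119811411-119811710 on the minus strand and the MUC2 window at chr11:1074624-1074923 on the plus strand. The GNG4 window held 30 CpG dinucleotides and 64.0% G and C, against a median of 14 CpG over 35116 promoters, while REG4 held 5 and MUC2 held 9. The CDX core was present on either strand in 10.6% of all promoters. Also searched on both strands were ATCAAAG, the TCF/LEF core, found in 2.62% of promoters, and GAAA followed after any 2 bases by GAAA, an interferon response core, found in 3.57%. None of these 3 motifs is in the GNG4 window. A match describes the letters of the window and no more.

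The markers of the mucinous type were checked first, and they did not all go with the label. REG4, a secreted lectin of goblet and enteroendocrine cells, read 10.43, 10.13 and 9.22 in LS513, LS180 and CL40, against 3.75, 3.67, 8.14 and 6.57 in SNUC1, HT55, SW948 and SW1463. The groups did not overlap, although SW948 came within 1.09 of the lowest of LS513, LS180 and CL40. The difference was 4.39 ± 1.06 (SE, limma, adjusted p = 0.636), so REG4 did not pass the test over all genes. MUC2 read 6.03, 5.96 and 7.79 against 3.05, 3.24, 5.64 and 4.49, a difference of 2.49 ± 0.73 (SE, limma adjusted p = 0.7479). Here too the groups did not overlap, but all 7 values were low to moderate and CL40 was the brightest. TFF3, the goblet cell trefoil peptide, read 12.54, 10.36 and 11.19 against 11.43, 10.05, 11.01 and 12.12. It was bright in every line and the groups overlapped, so TFF3 did not set LS513, LS180 and CL40 apart from these 4 lines (difference 0.21 ± 0.58, SE, limma adjusted p = 0.9652).

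**Figure D1:**
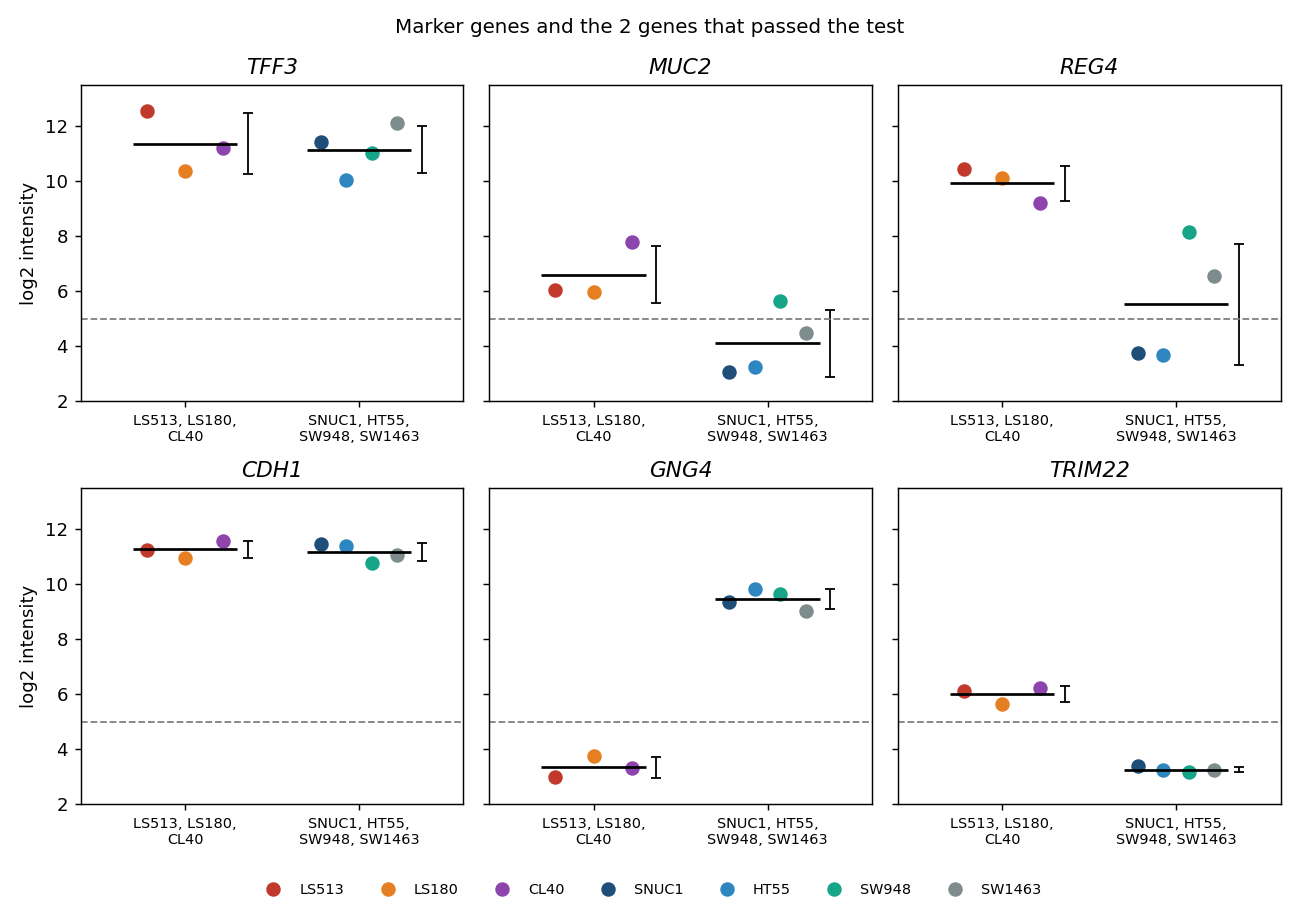
Log2 intensity of 4 markers and of the 2 genes that passed the test; points are single lines, bars and error bars are means and SD of 3 lines (left) and 4 lines (right), and the dashed line is the background of 5.01. TFF3 and CDH1 overlap between the groups, REG4 and MUC2 do not, GNG4 is under background in LS513, LS180 and CL40 only, and TRIM22 is under background in SNUC1, HT55, SW948 and SW1463 only.

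Over all 19774 genes, limma called 1 gene higher in LS513, LS180 and CL40 (0.00506% of the genes tested) and 1 gene lower (0.00506%) at an adjusted p under 0.05. At an unadjusted p under 0.05, 646 genes were higher (3.27%) and 525 were lower (2.66%), which together is 5.92% of all genes, and the median difference was -0.01. An exact permutation of 3 against 4 lines has 35 splits and cannot give a two-sided p under 0.0571, so no single gene was tested that way. Nor were the 3 lines more like one another than like the other 4. Over the 1516 genes with a range of at least 3 log2 units, which share arrays and probe sets, the correlation across genes had a median of 0.43 among LS513, LS180 and CL40 (3 pairs, 0.36 to 0.51), against 0.44 between the groups (12 pairs, 0.23 to 0.52) and 0.44 among SNUC1, HT55, SW948 and SW1463 (6 pairs, 0.36 to 0.62).

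The gene that fell was GNG4, a gamma subunit of heterotrimeric G proteins, on chromosome 1. It read 2.98, 3.74 and 3.31 in LS513, LS180 and CL40, against 9.37, 9.81, 9.65 and 9.02 in SNUC1, HT55, SW948 and SW1463. The 3 lines were all at background and the other 4 were all bright, with no line in between. Group means were 3.35 ± 0.38 (SD, n = 3) and 9.46 ± 0.35 (SD, n = 4), which is at least 21.9-fold lower when the dim lines are set at background (limma adjusted p = 0.001189). A second probe set differed by -6.79. The difference in GNG4 was -5.96 within the DMEM/F-12 lines and -6.39 for LS513 minus SNUC1 in RPMI, and it stayed under the threshold in 17 of 17 alternatives.

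The gene that rose was TRIM22, an antiviral ubiquitin ligase known to be induced by interferon, on chromosome 11. It read 6.12, 5.66 and 6.24 in LS513, LS180 and CL40, against 3.38, 3.24, 3.17 and 3.25 in the 4 other lines. All 3 values were moderate, and all 4 others were at background. Means were 6.0 ± 0.30 (SD, n = 3) and 3.26 ± 0.09 (SD, n = 4), at least 2.0-fold higher (limma adjusted p = 0.02918). The difference was 2.73 within each medium. Its call was less steady: TRIM22 passed in 8 of 17 alternatives, with limma adjusted p from 0.009774 to 0.2542. It lost the call when CL40 or any one of SNUC1, HT55, SW948 and SW1463 was left out. The other losses included medium as a covariate (limma adjusted p = 0.1196), a filter on background and the probe set of largest SD.

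A wider set of genes separated the groups, and apart from GNG4 and TRIM22 its members did not pass the test. In 21 genes (0.106% of all genes) every value in LS513, LS180 and CL40 lay at least 1 log2 unit above all 4 others and above background, and in 8 genes (0.0405%) the reverse held. Of these 29 genes, 12 had a second probe set above background in at least 1 line, and each of the 12 had the same direction there. A second probe set could enter this count through the brighter group alone, so the count is not an independent check. The second probe sets of VPS35L, SLC3A1, CEP135 and SP140L lay at background and differed by -0.11, -0.00, 0.08 and 0.28. Both counts grow when a line is left out, to 33 to 69 and 14 to 30 genes. The plot of these genes by line shows the separation.

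**Figure D2:**
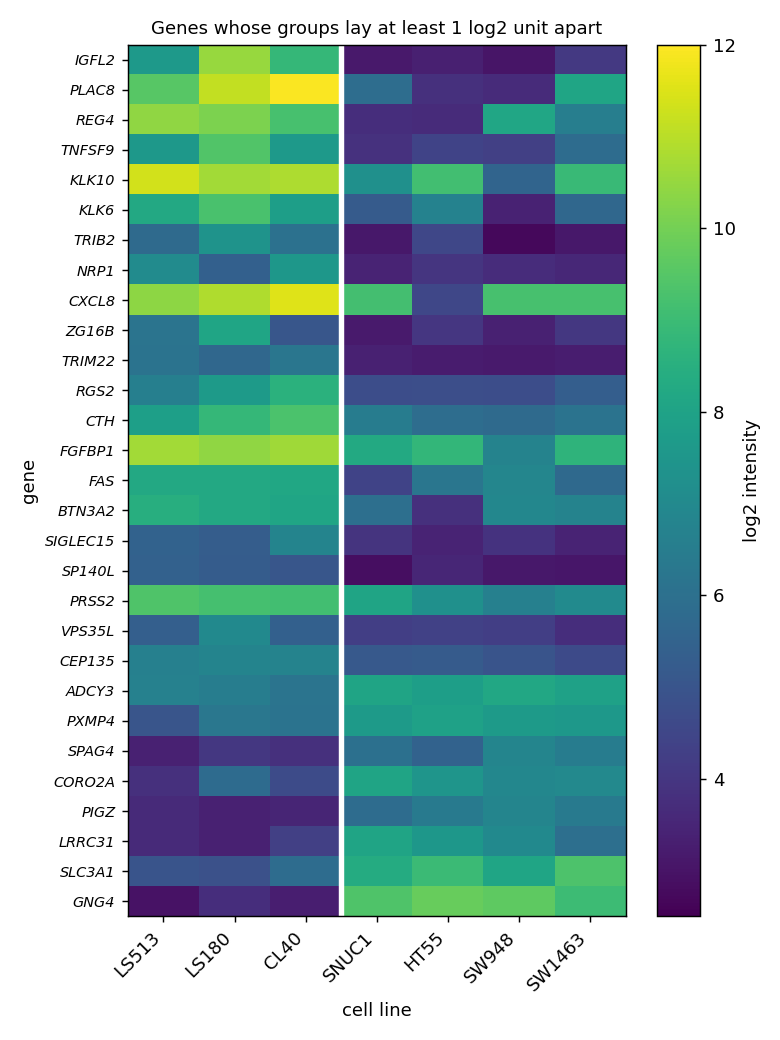
Log2 intensity (colour) of the 29 genes, in rows ordered by difference, whose groups lay at least 1 log2 unit apart, in LS513, LS180 and CL40 (left of the white line) and SNUC1, HT55, SW948 and SW1463 (right). IGFL2 has the largest positive and GNG4 the largest negative difference.

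Among these genes, several encode secreted or cell-surface proteins of epithelia. IGFL2, a secreted protein of the IGF-like family, read 7.59, 10.55 and 8.83 in LS513, LS180 and CL40, against 3.16, 3.35, 3.05 and 4.08 in SNUC1, HT55, SW948 and SW1463. It was at background in SNUC1, HT55, SW948 and SW1463 and at least 15.8-fold higher in LS513, LS180 and CL40, with means of 8.99 and 3.41 (limma adjusted p = 0.07541). PLAC8, a small cysteine-rich protein, read 9.54, 11.11 and 11.96 against 5.89, 3.81, 3.66 and 8.10. SW1463 was the closest of the 4 lines, 1.45 below LS513 (difference 5.51 ± 1.09, SE, limma adjusted p = 0.5108). The secreted serine proteases KLK10 and KLK6 differed by 3.22 and 3.19. FGFBP1, a carrier that releases fibroblast growth factors, was tight in LS513, LS180 and CL40 at 10.68, 10.41 and 10.65, against 8.26, 8.79, 6.74 and 8.68. PRSS2, a trypsinogen, differed by 1.98, and its near-identical relative PRSS1 by 2.29, so that probe sets may not tell the pair apart. NRP1, a co-receptor for VEGF and semaphorins, was at background in SNUC1, HT55, SW948 and SW1463 and at least 3.17-fold higher in LS513, LS180 and CL40 (means 6.67 and 3.66, limma adjusted p = 0.415). The lectin-like secretory protein ZG16B was at least 2.69-fold higher (means 6.43 and 3.64, limma adjusted p = 0.636).

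A second share of the 21 have known roles in immune signalling or cell death. TNFSF9, the ligand of the T cell costimulator 4-1BB, read 7.57, 9.42 and 7.60 in LS513, LS180 and CL40, against 3.87, 4.40, 4.31 and 5.85 in SNUC1, HT55, SW948 and SW1463. SW1463 alone of the 4 exceeded background (difference 3.59 ± 0.63, SE, limma adjusted p = 0.428). FAS, the death receptor, was nearly equal in the 3 lines at 8.25, 8.25 and 8.16, against a spread of 4.40, 6.23, 6.87 and 5.76. CXCL8, the neutrophil chemokine interleukin-8, read 10.39, 10.88 and 11.54 against 9.15, 4.52, 9.22 and 9.23. HT55 was at background for CXCL8 and the other 3 lines were alike, just over 1 unit under LS513. BTN3A2, a butyrophilin recognised by gamma-delta T cells and close in sequence to its family members, differed by 2.39, and SIGLEC15, a sialic acid receptor, was at least 1.80-fold higher (means 5.85 and 3.67, limma adjusted p = 0.428). SP140L, a relative of the nuclear body protein SP140, had means of 5.25 and 3.14 (at least 1.19-fold, limma adjusted p = 0.06925), just above background. Its second probe set lay at background and differed by 0.28.

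The remaining genes of the 21 act inside the cell. CTH, the enzyme that makes cysteine from cystathionine, read 7.88, 8.84 and 9.30 in LS513, LS180 and CL40, against 6.48, 5.91, 5.77 and 6.13 in SNUC1, HT55, SW948 and SW1463, and a second probe set differed by 3.02 (limma adjusted p = 0.3599 for the first). RGS2, a brake on G protein signalling, read 6.60, 7.67 and 8.58 against 4.74, 4.79, 4.73 and 5.35. In both genes LS513 was the nearest of the 3 lines to the other 4. The pseudokinase TRIB2 was at least 2.64-fold higher (means 6.41 and 3.36, limma adjusted p = 0.428). CEP135, a centriole protein, differed by 1.72 and VPS35L, an endosomal sorting protein, was at least 1.89-fold higher (means 5.93 and 4.15, limma adjusted p = 0.6745), but their second probe sets lay at background and differed by 0.08 and -0.11.

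The 8 genes on the low side included transporters and enzymes. SLC3A1, a subunit of the cystine transporter of absorptive epithelia, read 4.95, 4.84 and 5.84 in LS513, LS180 and CL40, against 8.35, 8.97, 8.07 and 9.34 in SNUC1, HT55, SW948 and SW1463 (difference -3.48 ± 0.42, SE, limma adjusted p = 0.07541). The second SLC3A1 probe set lay at background, with a difference of -0.00. Over the alternatives the SLC3A1 difference ran from -3.79 to -1.2. PIGZ, a mannosyltransferase of GPI anchor synthesis, read 3.64, 3.38 and 3.48 against 5.85, 6.41, 6.84 and 6.42, at least 2.59-fold lower (limma adjusted p = 0.07541). LRRC31, a leucine-rich repeat protein, was at least 4.39-fold lower (means 3.77 and 7.14, limma adjusted p = 0.3895). All 3 were near or under background in LS513, LS180 and CL40. The other members were SPAG4, at least 2.29-fold lower with means of 3.74 and 6.20 (limma adjusted p = 0.415), the peroxisomal membrane protein PXMP4 at -1.91, the adenylyl cyclase ADCY3 at -1.55 and the coronin CORO2A at -2.58. Outside these 8, BCL11A, a transcriptional repressor, differed by -2.84, with LS180 at 3.48 and LS513 at 6.08. ALDH1A1, the retinal dehydrogenase, read 9.0, 7.39 and 9.52 against 10.08, 11.77, 11.49 and 10.27.

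Of the 21 genes on the high side, 4 lie on chromosome 4 (PLAC8, FGFBP1, CXCL8 and CEP135), where the 272 genes above background in all 7 lines had a median difference of 0.47. Another 4 (IGFL2, TNFSF9, KLK10 and KLK6) lie on chromosome 19, where 423 such genes had a median of -0.07. Of the 8 on the low side, 2 (SPAG4 and PXMP4) lie on chromosome 20, where 224 such genes had a median of -0.53, against -0.02 over all 7902. Chromosome 2 (SLC3A1 and ADCY3) and chromosome 3 (PIGZ and LRRC31) also held 2 each of the 8, with medians of -0.21 over 545 genes and -0.13 over 464. The part of these shifts in the results was not tested.

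Goblet cell genes as a group lay higher in LS513, LS180 and CL40, although no member passed the test. Of 24 genes measured, 23 had a positive difference with a median of 0.50, against -0.01 over all genes, and 20 exceeded background in some line. At an unadjusted p under 0.05, 5 were higher (3.27% of all genes were) and 0 were lower. These were REG4, MUC2, CREB3L1, TMEM61 and ITLN1, of which ITLN1 was under background throughout. The 3 lines each lay on the high side of the list, at 0.65, 0.50 and 0.37 above the 7-line mean in LS513, LS180 and CL40, against -0.35, -0.21, -0.22 and -0.27 in SNUC1, HT55, SW948 and SW1463. Single members varied more than that. TFF1, the second trefoil peptide of mucous cells, read 10.19, 10.13 and 8.56 against 5.58, 5.14, 7.50 and 10.16, so SW1463 was as bright as LS513. FCGBP, a mucus-binding protein, read 7.59, 7.21 and 6.19 against 3.43, 3.24, 7.85 and 4.45, with SW948 brightest of all. AGR2, the disulfide isomerase needed to fold MUC2, was high everywhere, at 12.28, 12.47 and 12.30 against 11.65, 9.46, 11.31 and 12.50. ATOH1, the factor that specifies secretory cells, was at background in all 7 lines, at most 4.0.

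**Figure D3:**
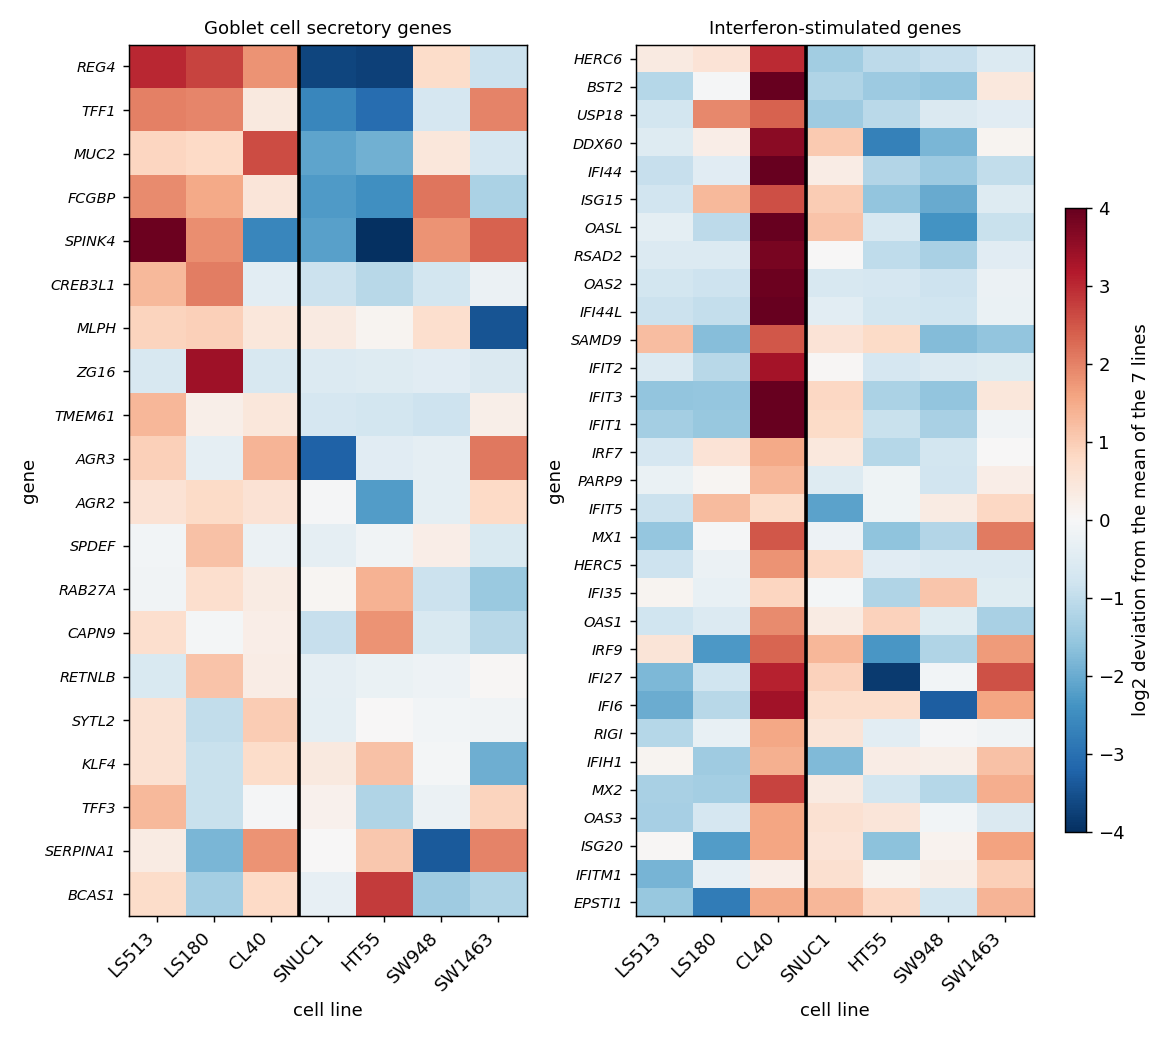
Log2 deviation from the 7-line mean (colour, clipped at 4 units) of the goblet cell genes (left) and interferon-stimulated genes (right) that exceed background in some line, in LS513, LS180 and CL40 (left of the black line) and SNUC1, HT55, SW948 and SW1463 (right). REG4 is high in all 3 lines on the left, while most interferon-stimulated genes are high in CL40 alone of these.

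Mucins other than MUC2 gave little difference: of 12 measured, 0 passed an unadjusted p under 0.05 in limma in either direction, and the median was 0.33. The gastric-type gel-forming mucins MUC5AC and MUC6 exceeded background in LS180 alone, at 6.78 and 6.17. The membrane mucin MUC13 was bright in all lines, between 9.53 and 10.16 in LS513, LS180 and CL40 and between 9.47 and 10.49 in SNUC1, HT55, SW948 and SW1463. Gastric-type genes had 3 of 14 higher (21.4%) and 2 lower (14.3%) at an unadjusted p under 0.05, with a median of 0.13. Over all genes the shares were 3.27% and 2.66%. ANXA10, among the higher, and GKN2, among the lower, were under background in all 7 lines. CTSE, the gastric protease cathepsin E, read 10.48, 8.38 and 11.04 against 8.56, 3.22, 3.90 and 5.48 (difference 4.68 ± 1.24, SE, limma adjusted p = 0.69). TFF2, the trefoil peptide of gastric glands, read 9.35, 7.90 and 9.93 against 8.31, 4.24, 4.83 and 6.74. In both, SNUC1 was brighter than LS180, so the groups overlapped. SOX2, the foregut factor, was at background in the 3 lines, at 2.89, 3.18 and 2.90, and read 3.20, 7.14, 4.82 and 5.68 in the others.

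Enzymes that build mucin-type sugar chains split in both directions around a median of 0.0. Of 32 measured, 7 were higher (21.9%) and 1 lower (3.12%) at an unadjusted p under 0.05, and none was called. Over all genes the shares were 3.27% and 2.66%. FUT3, which makes Lewis antigens, read 8.14, 8.66 and 7.91 in LS513, LS180 and CL40, against 4.70, 3.35, 6.15 and 7.31 in SNUC1, HT55, SW948 and SW1463 (difference 2.86 ± 0.85, SE, limma adjusted p = 0.7537). FUT6, a related fucosyltransferase, differed by 2.11. ST6GALNAC1, the sialyltransferase that makes sialyl-Tn, read 7.23, 9.99 and 9.45 against 6.50, 6.26, 5.95 and 8.35. GCNT3, which makes core branches of mucin glycans, read 8.10, 9.66 and 9.96 against 7.33, 5.65, 5.30 and 9.39. SW1463 overlapped LS513 in these last 2 genes, and not in FUT3 or FUT6. GALNT5 and GALNT1, which start the chains, differed by 2.06 and 1.53 with no overlap, while their relative GALNT6 differed by -1.33.

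Secretory machinery of the endoplasmic reticulum had 18 of 22 members on the positive side and a median of 0.23. At an unadjusted p under 0.05, 3 were higher (13.6%, against 3.27% of all genes) and 0 lower. SEC24D, a coat protein of export vesicles, read 6.30, 6.96 and 7.85 against 5.83, 5.04, 4.97 and 5.29, though its second probe set lay at background. KDELR3, a retrieval receptor, read 9.04, 9.36 and 8.87 against 8.20, 5.88, 8.70 and 6.95. ERN2, a stress sensor known from mucous epithelia, differed by 0.91, with SNUC1 and SW948 above LS180.

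Absorptive cell genes had a lower median as a list, while the lines interleaved. Per-line positions were -0.16, -0.54 and 0.14 in LS513, LS180 and CL40, against 0.18, 0.31, -0.15 and 0.21 in SNUC1, HT55, SW948 and SW1463. Of 29 measured, 5 had a positive difference, the median was -0.46, and 4 were lower and 0 higher at an unadjusted p under 0.05, against a background of 2.66% lower. Of these 4, SLC15A1 was under the background intensity in all 7 lines. MYO1A, the brush border myosin, read 6.37, 4.06 and 6.38 in LS513, LS180 and CL40, against 8.66, 7.97, 6.87 and 8.16 in SNUC1, HT55, SW948 and SW1463. The groups did not overlap (difference -2.31 ± 0.66, SE, limma adjusted p = 0.7291). MEP1A, the meprin metalloprotease, read 4.95, 3.19 and 6.62 against 7.30, 8.77, 5.76 and 8.94. LS180 was low for several other members: FABP1, the fatty acid binding protein, was 4.50 there and between 11.16 and 13.02 in the other 6 lines, and KRT20, the keratin of differentiated cells, was 4.66 there and between 11.43 and 12.34 elsewhere. Without LS180 the list median was -0.13, and without CL40 it was -0.80. CDX2, the intestinal identity factor, read 7.02, 7.45 and 7.67 against 8.87, 8.89, 8.69 and 7.44, with SW1463 inside the range of the 3 lines. SOX9 and EHF, epithelial factors of the crypt, were higher by 0.79 and 0.82.

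No gene on the metabolic lists passed the test. Of 24 genes of fatty acid oxidation and ketone body synthesis, 0 passed an unadjusted p under 0.05 in limma in either direction, with a median of 0.08. Of 21 genes of cholesterol and fatty acid synthesis, 1 was higher, ELOVL6 (4.76%, against 3.27% of all genes), with a median of -0.09. ELOVL6 lies on chromosome 4, where the 272 genes above background in all 7 lines had a median difference of 0.47. The part of that shift in this result was not tested. Fructose, mannose and hexosamine enzymes had 3 of 21 higher (14.3%, against 3.27% of all genes) and a median of -0.15. Of these 3, SLC2A2, a glucose and fructose transporter, lay under background in all 7 lines. UGDH, which makes the UDP-glucuronate used in glycan and drug conjugation, read 9.60, 10.11 and 10.05 against 9.06, 8.19, 9.25 and 9.20, without overlap. Like ELOVL6, UGDH lies on chromosome 4. GFPT1, the entry enzyme of the hexosamine pathway, differed by 0.63.

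Glucose metabolism split between 2 genes higher and 2 lower of 27, with a median of -0.11. That is 7.41% each way, against 3.27% higher and 2.66% lower over all genes. PGD, of the pentose phosphate pathway, read 10.31, 10.62 and 10.04 in LS513, LS180 and CL40, against 9.58, 9.14, 8.94 and 9.80 in SNUC1, HT55, SW948 and SW1463 (difference 0.96 ± 0.26, SE, limma adjusted p = 0.7028). Its second probe set lay at background and differed by -0.04. PCK1, the gluconeogenic enzyme, read 7.51, 7.85 and 8.89 against 8.50, 10.85, 10.27 and 11.74. SNUC1 overlapped CL40 for PCK1, which lies on chromosome 20. Single lines stood out as well, with HK1 at 4.24 in LS513 and LDHB at 7.89 in SNUC1, each against values of at least 7.86 elsewhere for HK1 and 11.59 for LDHB.

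Glutathione and glutamine genes had 18 of 26 members on the positive side and a median of 0.26, which was 0.04 without SNUC1. At an unadjusted p under 0.05, 4 were higher (15.4%, against 3.27% of all genes) and 1 lower. SLC7A11, the cystine importer that feeds glutathione synthesis, read 8.71, 9.60 and 9.11 against 8.68, 7.34, 7.88 and 7.18, so SNUC1 matched LS513 in the shared medium (difference 0.03) and the DMEM/F-12 lines differed by 1.89. CHAC1, which degrades glutathione, behaved alike, with -0.04 between LS513 and SNUC1 and 2.14 within DMEM/F-12. Drug-metabolising genes had 0 of 32 higher and 1 lower, ALDH1A1 (3.12%, against 2.66% of all genes), with a median of 0.02. Of 25 prostaglandin and arachidonate genes, 1 was higher (4.0%, against 3.27% of all genes). This was ALOX5, the enzyme that starts leukotriene synthesis, which read 8.0, 6.85 and 8.34 against 3.74, 3.52, 6.66 and 4.39. SW948 alone of the 4 lines was above background for ALOX5 (difference 3.15 ± 0.78, SE, limma adjusted p = 0.636).

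**Figure D4:**
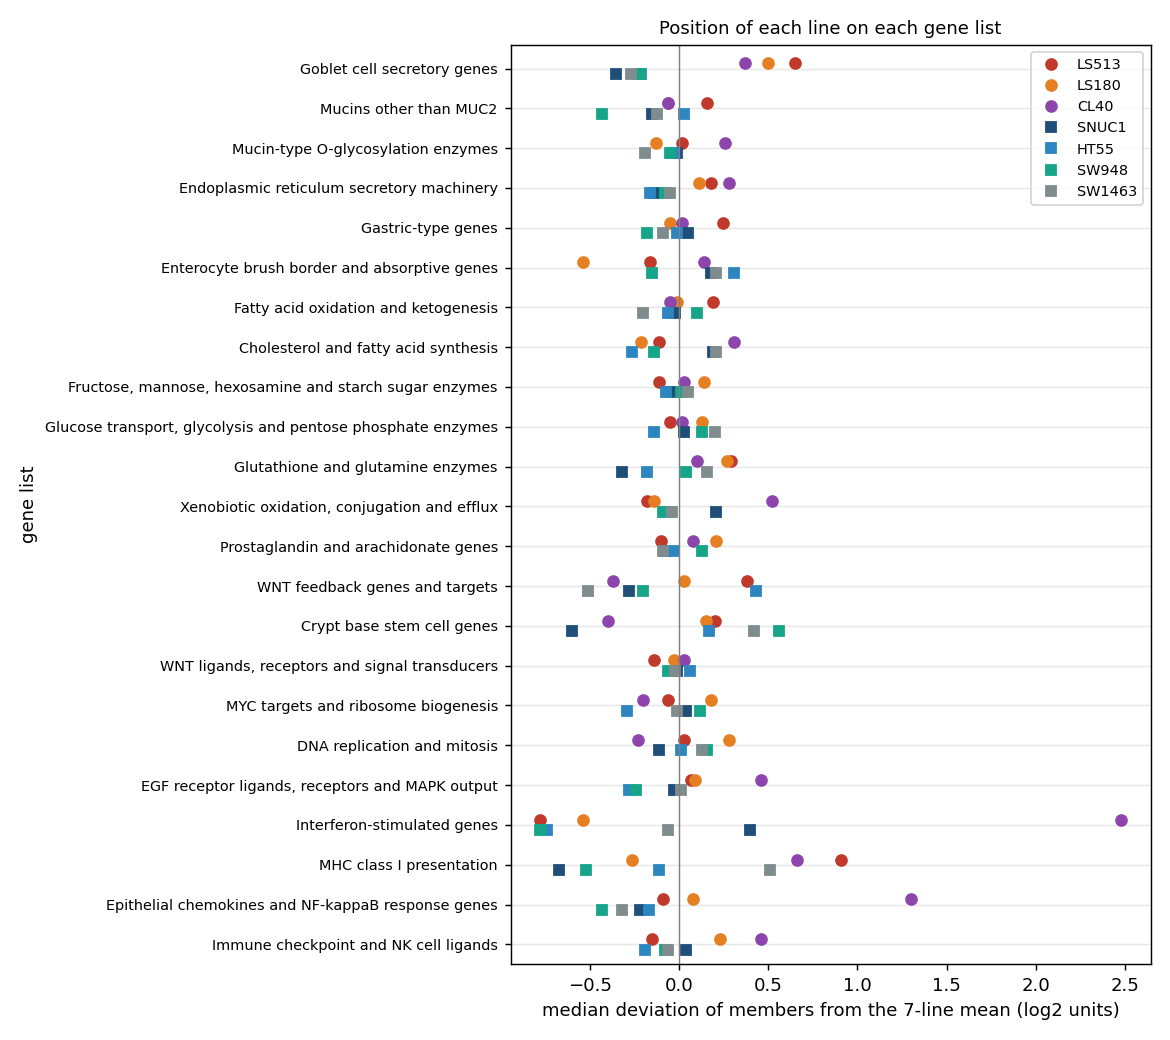
Median deviation of each list's members from the 7-line mean (horizontal, log2 units) for LS513, LS180 and CL40 (circles) and SNUC1, HT55, SW948 and SW1463 (squares). The circles lie right of all squares for goblet cell genes, at 0.37 to 0.65 against -0.35 to -0.21, and are mixed with them for WNT targets; CL40 stands at 2.48 for interferon-stimulated genes.

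WNT genes lay on no single side. Of 29 WNT feedback genes and targets, 1 was higher and 1 lower at an unadjusted p under 0.05. That is 3.45% each way, against 3.27% higher and 2.66% lower over all genes. The median was 0.09. The per-line positions were interleaved, at 0.38, 0.03 and -0.37 in LS513, LS180 and CL40 and -0.28, 0.43, -0.20 and -0.51 in SNUC1, HT55, SW948 and SW1463. AXIN2, the standard feedback target, read 9.81, 9.45 and 9.38 against 10.85, 11.44, 9.33 and 8.89, with overlap. MYC, the growth-promoting target, read 11.23, 11.07 and 10.08 against 12.39, 11.76, 11.83 and 11.85, with no overlap (difference -1.16 ± 0.29, SE, limma adjusted p = 0.636), and its second probe set lay at background. DKK1, a secreted WNT inhibitor, was bright in LS180 and CL40, at 11.36 and 10.19, and at background in LS513 at 3.55. It read 5.04, 3.27, 3.90 and 3.44 in SNUC1, HT55, SW948 and SW1463. Without LS513 DKK1 was called higher, as it was among the DMEM/F-12 lines, while LS513 minus SNUC1 was -1.50. The inhibitors NOTUM and WIF1 exceeded background clearly in HT55 alone, at 8.94 and 9.42.

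Crypt base genes were as mixed, with 0 of 18 higher and 2 lower (11.1%, against 2.66% of all genes). The median was -0.02, which was -0.34 without SNUC1 and 0.24 without CL40. Of the 2 lower genes, MSI1 was under background in all 7 lines. KCNE3, the other, read 9.16, 3.83 and 8.44 in LS513, LS180 and CL40, against 9.32, 9.82, 10.08 and 9.88 in SNUC1, HT55, SW948 and SW1463. LGR5, the stem cell receptor, read 6.71, 9.90 and 5.39 in LS513, LS180 and CL40, against 4.31, 7.92, 8.58 and 7.27 in SNUC1, HT55, SW948 and SW1463, with LS180 the brightest. OLFM4 was at background in LS513, LS180, CL40, SNUC1 and HT55 and read 11.31 and 10.63 in SW948 and SW1463. Among 36 ligands, receptors and transducers, 2 were higher (5.56%) and 1 lower (2.78%) with a median of -0.19. Over all genes the shares were 3.27% and 2.66%. APC, the brake on beta-catenin, read 7.75, 7.14 and 7.63 against 4.0, 6.91, 6.57 and 4.19, and the corepressor TLE4 was higher by 1.19. APC was close between the groups in HT55 and SW948 and at background in SNUC1 and SW1463. The ligand WNT11 read 4.11, 4.35 and 4.57 in LS513, LS180 and CL40, against 8.47, 5.91, 6.45 and 4.30 in SNUC1, HT55, SW948 and SW1463 (limma adjusted p = 0.8434). SW1463 was at background like LS513, LS180 and CL40, so the groups overlapped.

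Growth and division genes differed in few members. MYC and ribosome biogenesis genes had 1 of 24 higher (4.17%, against 3.27% of all genes) and 0 lower. Their median was -0.01, and the higher gene, GAR1, lies on chromosome 4. Replication and mitosis genes had 0 of 28 higher and 3 lower (10.7%, against 2.66% of all genes), with a median of -0.02. These 3 were AURKA, TPX2 and TOP2A. AURKA, the spindle kinase, read 9.68, 9.87 and 9.89 in LS513, LS180 and CL40, against 10.94, 10.77, 10.63 and 10.90 in SNUC1, HT55, SW948 and SW1463 (difference -1.0 ± 0.16, SE, limma adjusted p = 0.3895). TPX2, its activator, differed by -0.94. Both are tight within the groups and both lie on chromosome 20. Of 26 EGF receptor and MAPK output genes, 21 had a positive difference, with a median of 0.57, which was 0.29 without SW948. At an unadjusted p under 0.05, 3 were higher (11.5%, against 3.27% of all genes) and 0 lower. DUSP4, a phosphatase induced by ERK, read 9.91, 10.01 and 8.42 against 8.69, 4.79, 8.40 and 5.46. Its lowest value among the 3 lines, in CL40, lay between SW948 and SNUC1. EGF itself read 3.35, 5.62 and 7.32 and was at background in all 4 others.

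Interferon-stimulated genes stood highest in CL40 as a list. Of 32 interferon-stimulated genes, 28 had a positive difference with a median of 0.68. Yet 2 were higher (6.25%) and 1 lower (3.12%) at an unadjusted p under 0.05. Over all genes the shares were 3.27% and 2.66%. The per-line positions were -0.78, -0.54 and 2.48 in LS513, LS180 and CL40, against 0.40, -0.74, -0.78 and -0.06 in SNUC1, HT55, SW948 and SW1463. Without CL40 the list median turned to -0.34, and without LS513 it was 1.27. BST2, the virus tether tetherin, read 3.92, 4.99 and 10.02 against 3.84, 3.59, 3.52 and 5.48, and IFIT1 read 3.01, 2.87 and 8.81 against 5.14, 3.48, 3.09 and 4.23. TRIM22, in contrast, read 6.12 in LS513 and 6.24 in CL40. The 2 members higher in the group comparison were HERC6, at 5.60, 5.78 and 8.20 against 3.84, 4.17, 4.31 and 4.68, and USP18, at 4.86, 7.51 and 7.97 against 4.18, 4.52, 5.02 and 5.15. HERC6 was at least 2.87-fold higher (limma adjusted p = 0.7226), and its second probe set lay at background.

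Of 19 MHC class I genes, 18 had a positive difference, with 1 higher, 0 lower and a median of 0.39. The 1 higher gene is 5.26% of the list, against 3.27% of all genes. NLRC5, the class I transactivator, read 8.19, 6.19 and 7.31 in LS513, LS180 and CL40, against 4.15, 6.21, 3.95 and 6.60 in SNUC1, HT55, SW948 and SW1463. PSMB9, an immunoproteasome subunit, read 9.40, 7.32 and 8.65 against 3.94, 6.09, 6.79 and 9.71. LS180 was the lowest of the 3 lines in both, and SW1463 stood with the bright lines. Without LS180 the median was 1.16. Class II genes were at background in most lines: 3 of 13 exceeded it anywhere, and 0 passed an unadjusted p under 0.05 in limma in either direction.

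Epithelial chemokine and NF-kappaB response genes had 29 of 33 members on the positive side and a median of 0.87. At an unadjusted p under 0.05, 5 were higher (15.2%, against 3.27% of all genes) and 0 lower. The 5 were CXCL8, CCL2, IL33, LCN2 and PIGR, and CCL2 was under background in every line. LCN2, the iron-binding lipocalin, read 12.24, 8.11 and 9.89 in LS513, LS180 and CL40, against 8.81, 7.36, 7.84 and 6.93 in SNUC1, HT55, SW948 and SW1463. IL33, an alarmin cytokine, read 10.12, 7.81 and 9.63 against 7.54, 7.88, 4.83 and 7.59. PIGR, which carries IgA into the gut lumen, ran from 3.28 in LS513 and 6.97 in CL40 to 12.02 in LS180, and was at most 3.66 in the other 4 lines. CXCL1, a neutrophil chemokine, read 7.83, 10.55 and 10.66 against 10.56, 3.44, 6.71 and 5.27, with SNUC1 as bright as LS180. The list median was 0.17 without CL40. Among checkpoint and NK cell ligands, 2 of 18 were higher (11.1%, against 3.27% of all genes), TNFSF9 and LGALS9, and 0 lower. The median of these ligands was 0.28, and it was 0.06 without CL40 and 0.54 without LS513. CD274, which encodes PD-L1, was at background in all 7 lines, at most 3.99.

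Other epithelial lists differed little. Notch genes had 1 of 20 higher, MAML3 (5.0%, against 3.27% of all genes). MAML3 lies on chromosome 4, and its second probe set lay at background and differed by -0.03. Ion transport genes had 3 of 22 higher (13.6%) and 1 lower (4.55%, against 2.66% of all genes). Junction and keratin genes had 0 of 24 in either direction. Mesenchymal genes had 2 of 22 higher (9.09%), ACTA2 and TAGLN. ACTA2 was near or under background, at most 5.11. TAGLN read 6.25, 5.02 and 3.72 in LS513, LS180 and CL40, against at most 3.70 in the other 4 lines. Of 16 enteroendocrine genes, 1 was lower (6.25%, against 2.66% of all genes): DDC, which makes serotonin and dopamine. It read 9.73, 8.39 and 9.96 in LS513, LS180 and CL40, against 11.13, 10.37, 11.25 and 11.07 in SNUC1, HT55, SW948 and SW1463. The groups did not overlap (difference -1.60 ± 0.39, SE, limma adjusted p = 0.636). Among 14 Paneth and tuft cell genes, 1 was higher, REG3A (7.14%, against 3.27% of all genes), at 8.53, 3.06 and 6.04 against at most 3.50. Of the 3 lines, LS513 was bright for the defensin DEFA5 at 9.92, compared with 3.39 and 3.33 in LS180 and CL40. DEFA5 was also bright in SW948 and SW1463, at 8.42 and 10.20. PLA2G2A, on the same list, went the other way, at 4.16 in LS513, 8.75 in LS180 and 4.26 in CL40.

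LS513, LS180 and CL40 also differed from one another. In LS180, 44 genes lay at least 3 log2 units above all 6 other lines and 20 lay as far below. CL40 had 29 and 8 such genes, and LS513 had 7 and 5. The leading genes of LS180 were BCAT1, a branched-chain amino acid transaminase, at 10.57 against at most 3.69 elsewhere, MDFIC at 9.61 and the surface protein CD109 at 9.53. Those of CL40 were BST2, the pseudogene ABCA17P at 9.49 and PPBP, a platelet chemokine, at 9.91. Those of LS513 were LOC100289026 at 9.98, the transporter chaperone EMB at 8.67 and PRR9 at 10.50. In the group comparison these genes had adjusted p of 0.841 or more in limma, and each was bright in 1 of the 3 lines.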

How the data were processed

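The deposited table holds log2 intensities of 54613 probe sets on 18 arrays, computed by the authors by RMA (affy package), as the submitters' processing notes record without versions. The 7 arrays were used as deposited, with values from 2.32 to 13.71. Of the probe sets, 40914 matched 1 gene and were used, 864 several and 12835 none; 40858 matched RefSeq (GRCh38.p14). Each of 19774 genes was read from its probe set with the highest mean over the 7 lines.

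Groups were compared with limma 3.58.1 in R 4.3.3 (lmFit, eBayes with trend), with Benjamini-Hochberg adjustment over all genes, called at an adjusted p under 0.05. Apart means at least 1 log2 unit between the groups' nearest lines. Background came from 75 probe sets of 42 genes of unrelated tissues (50 were listed), at their 95th percentile, and a fold against a group at background is a lower bound computed there. The 33 gene lists (798 entries, 742 measured) were drawn from general knowledge; members and lists were chosen with earlier results of these data known. Named genes were, per direction, the 12 called or otherwise of smallest p with a difference of at least 2, the markers, 4 per list by difference, 3 per line that were at least 3 above the other lines, and the 29 apart. Further genes, among them members counted at an unadjusted p under 0.05, were named after their values were seen. Alternatives were other choices of probe set, filtering, limma settings, medium as a covariate or DMEM/F-12 alone, and dropping 1 line at a time. The main limma fit, and none of the alternatives, was also run on simulated data with known differences. Of 39 genes looked up, 32 had a RefSeq promoter. Software was Python 3.11.15 with pandas 2.3.3, numpy 2.4.6 and matplotlib 3.10.9.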

Additional observations from a re-analysis of the deposited data

Results flagged for a closer look

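Of 161 named genes, 15 had 1 line of SNUC1, HT55, SW948 and SW1463 standing far from the other 3, by a gap above Dixon's critical value for 4 samples. Chance gives such a gap in about 1 in 20 groups, and LS513, LS180 and CL40 were not examined in this way. SW1463 stood apart in 6 genes. It was high for PRAC1, a hindgut gene, at 10.97 against at most 3.02, for BST2 at 5.48 against at most 3.84, for RGS2 at 5.35 against at most 4.79, and for the NK cell ligand ULBP2 at 6.96 against at most 6.12. It was low for CDX2 at 7.44 against at least 8.69 and for the phosphomannomutase PMM1 at 5.07 against at least 6.78.

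HT55 stood apart in 5 genes: it was high for WIF1 at 9.42, NOTUM at 8.94, the prostaglandin synthase PTGES at 9.23 and the transcription factor TWIST1 at 6.57, and low for CXCL8 at 4.52 against at least 9.15. SNUC1 stood apart in 4 genes, low for LDHB at 7.89 against at least 12.39 and for the peroxidase GPX1 at 4.55 against at least 10.97, and high for MYC at 12.39 against at most 11.85 and for CHAC1 at 5.04 against at most 4.55. No difference between these lines was tested.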

How the results depend on the processing

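No paired analysis was possible because replicate numbers were given in accession order and tie no line of one group to a line of the other. GNG4 remained called under each alternative run. Counts of called genes moved with the settings: the gene higher in LS513, LS180 and CL40 became 0 with the filter on background, with the probe set of largest SD and with medium as a covariate, and the lower count became 2 with the mean of all probe sets and without limma's variance trend. Leaving out a line gave 0 to 6 genes higher and 1 lower, with 6 higher without LS513 (CAV1, DKK1, IFI16, IGFL2, PPP1R9A and TRIM22) and 0 without CL40, SNUC1, HT55, SW948 or SW1463. Genes apart by at least 1 unit were 33 to 69 higher and 14 to 30 lower when a line was left out, 101 and 61 among the DMEM/F-12 lines, and 5 lower with the mean of all probe sets; medium as a covariate and the variance settings give these counts no value. The cause was not tested, except that fewer lines leave more genes apart by construction. List medians moved as follows. Among the DMEM/F-12 lines they were -0.02 for sugar enzymes, 0.02 for glycolysis, 0.11 for glutathione and -0.10 for WNT ligands and receptors. With the filter on background they were 1.13 for goblet and 1.14 for gastric genes. With the mean of all probe sets they were 0.08 for mucins and -0.07 for WNT ligands and receptors. With the probe set of largest SD they were 0.58 for goblet genes and -0.10 for WNT ligands and receptors. With medium as a covariate glutathione genes were at 0.32. Leaving out a line gave 0.45 to 0.89 for goblet, 0.09 to 0.41 for mucin, 0.04 to 0.41 for glutathione, -0.14 to 0.01 for glycolysis, -0.18 to 0.02 for sugar, 0.24 to 1.16 for MHC class I, -0.13 to 0.21 for WNT target, -0.34 to 0.24 for crypt base, -0.80 to -0.13 for enterocyte, 0.29 to 0.66 for EGF receptor and MAPK, 0.06 to 0.54 for checkpoint, 0.05 to 0.24 for gastric, -0.14 to 0.13 for drug-metabolising, -0.18 to 0.05 for cholesterol and fatty acid synthesis, -0.04 to 0.15 for fatty acid oxidation and -0.19 to -0.06 for WNT ligand and receptor genes. Of 161 named genes, 24 changed sign in some alternative, in 51 results; 2640 others kept sign and call. Among the DMEM/F-12 lines the differences were -0.29 for TFF3, -0.32 for ANXA13, 0.73 for HK1, 1.26 for UGT1A6, -0.46 for PTGES, 0.02 for POLR1A, -0.96 for CTSS, 0.53 for SCG5, 1.32 for FN1, -0.91 for LYZ, -0.15 for EMB and -0.89 for PRR9. LYZ was -0.01 with the mean of all probe sets and -0.15 with the largest SD, and medium as a covariate gave -0.05 for CTSS and 0.01 for SCG5. Leaving out a line gave -0.38 to 0.71 for TFF3, -1.71 to 0.66 for HK1, -2.26 to 0.91 for UGT1A6, -0.09 to 2.57 for PTGES, -0.94 to 1.83 for CTSS, -1.56 to 0.85 for SCG5, -1.30 to 0.88 for FN1, -1.26 to 1.27 for LYZ, -0.37 to 2.41 for EMB, -0.94 to 2.57 for PRR9, -0.11 to 1.77 for MUC5AC, -0.09 to 1.35 for MUC6, -0.21 to 2.08 for PLA2G2A, -2.93 to 0.56 for DEFA5, -0.12 to 3.06 for MDFIC, -0.25 to 2.93 for CD109, -0.07 to 0.24 for CDH1, -0.21 to 1.39 for HLA-DQB1, -0.11 to 3.34 for PPBP, -0.15 to 1.51 for LDHB, -2.03 to 0.15 for WIF1 and -2.67 to 0.01 for PRAC1. Signal over background limits the dim genes: a value under 5.01 is read as not detected.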

Other observations

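Genes of some chromosomes lay mostly on one side in the comparison of LS513, LS180 and CL40 with SNUC1, HT55, SW948 and SW1463. Over the 7902 genes above background in all 7 lines, the median difference was -0.02 and 52.5% of genes were lower in LS513, LS180 and CL40. On chromosome 20, 201 of 224 genes were lower (89.7%), with a median of -0.53, and 66 were lower and 0 higher at an unadjusted p under 0.05. The per-line medians there were -0.33, -0.28 and -0.31 in LS513, LS180 and CL40, against 0.46, -0.18, 0.14 and 0.42 in SNUC1, HT55, SW948 and SW1463, so HT55 lay nearer to the 3 lines than the other 3 did. AURKA, TPX2, PCK1, SPAG4 and PXMP4, described above, are on this chromosome.

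Chromosomes 4, 18 and 22 lay the other way. On chromosome 4, 15 of 272 genes were lower (5.51%) and the median difference was 0.47, with 0.24, 0.36 and 0.24 in LS513, LS180 and CL40 against -0.16, -0.34, -0.10 and -0.16 in SNUC1, HT55, SW948 and SW1463. At an unadjusted p under 0.05 in limma, 81 of the 272 were higher and 0 lower. Among the genes counted above at that threshold, ELOVL6, UGDH, GAR1, SEC24D, SLC7A11, EGF, HERC6, MAML3 and CXCL8 are on this chromosome. On chromosome 18, 7 of 117 genes were lower (5.98%) and the median was 0.46, with 0.22, 0.31 and 0.30 against -0.20, -0.27, -0.09 and -0.26. The groups did not overlap on either chromosome. Chromosome 22 had a median of 0.32 over 164 genes. Chromosome 13 had a median of -0.34 over 154 genes, but LS513, at 0.32, was above all 6 other lines while LS180 and CL40 were at -0.59 and -0.33. Among the DMEM/F-12 lines the medians were -0.42, 0.50, 0.49, 0.42 and -0.67 on chromosomes 20, 4, 18, 22 and 13. These summaries were chosen after the data were seen, genes of 1 chromosome are not independent, and copy number was not measured on these arrays.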
